A study of Mus musculus with 10 samples.

Results

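The 10 genes described here are Tnc, Thbs1, Postn, Ctgf, Cyr61, Grem1, Csf1, Timp2, Cd44 and Cav1, out of 22713 gene IDs measured in mouse embryonic stem (ES) cells. They were chosen by their mRNA level, which was higher after loss of Pontin, and each of the listed symbols matched 1 Ensembl ID. The levels after Pontin depletion, and those after Oct4 depletion against the same WT library, are therefore given as a description, with no test. Of the 10 genes, 8 encode secreted proteins, whereas Cd44 and Cav1 encode proteins of the cell membrane, so that the set is called the matrix and membrane genes below.

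Pontin, listed as Ruvbl1, is an ATPase of chromatin-remodelling and histone acetyltransferase complexes, and Oct4 (Pou5f1) is a transcription factor of pluripotent cells. Pontinf/f; CreER ES cells carry floxed Pontin alleles and a Cre recombinase that 4-hydroxytamoxifen (OHT) activates, and they gave 1 mRNA library each before OHT (WT, 0 days), after 3 days of it (OHT 3D) and after 4 days (OHT 4D). ZHBTc4 ES cells, in which tetracycline (Tc) shuts off Oct4, gave 1 library after 2 days of Tc (Tc 2D). ZHBTc4 ES cells infected for 4 days with lentivirus of the pLKO type, gave 2 libraries with a control shRNA against luciferase and 2 with an shRNA against the long noncoding RNA linc1253, and chromatin of the same line gave 1 ChIP-seq library for Pontin and 1 for GFP. The control of Tc 2D in the study, the WT library, is of another cell line, so that Oct4 loss and cell line cannot be told apart there. According to the methods, ES cells grew either on embryonic fibroblast feeders or without feeders, and which of these held for each library is not given in the sources used here. In bulk RNA of this kind, fewer cells of a type and less RNA per cell cannot be told apart.

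Matricellular proteins are secreted into the extracellular matrix but serve less as scaffold than as signals: they bind integrins, other matrix proteins and growth factors, and change how cells adhere and migrate. Tenascins, thrombospondins, periostin and the CCN proteins belong to this class. They are low in most resting tissues and rise in wounds, in fibrosis and in mesenchymal cells of the embryo.

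The promoters of 8 of the 10 genes were matched in a RefSeq table of the GRCm38.p6 build. Ctgf and Thbs1 are named only. The letters upstream of the start site are shown for 5 of the 8, because these promoters differ in base composition. Their genes were all chosen for a rise after OHT, and at Tc 2D they went in both directions. Each line gives the 150 bases before the start site on the strand of the gene, from chr4:64047016-64047165 (minus strand) for Tnc, chr3:54360957-54361106 (plus strand) for the second promoter of Postn, chr3:145649986-145650135 (minus strand) for Cyr61, chr2:113758649-113758798 (minus strand) for Grem1 and chr11:118355412-118355561 (minus strand) for Timp2. Capitals mark a TATA box (TATAAA, searched on the strand of the gene), a GC box (GGGCGG, on both strands) or the core of a TEAD site (GGAATG, on both strands, so that it can read CATTCC).
Tnc: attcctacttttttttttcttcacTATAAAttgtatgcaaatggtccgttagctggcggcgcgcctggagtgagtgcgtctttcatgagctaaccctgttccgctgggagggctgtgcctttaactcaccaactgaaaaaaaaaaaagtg
Postn: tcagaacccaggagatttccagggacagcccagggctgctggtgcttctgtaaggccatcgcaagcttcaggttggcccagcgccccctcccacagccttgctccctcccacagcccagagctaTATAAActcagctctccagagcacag
Cyr61: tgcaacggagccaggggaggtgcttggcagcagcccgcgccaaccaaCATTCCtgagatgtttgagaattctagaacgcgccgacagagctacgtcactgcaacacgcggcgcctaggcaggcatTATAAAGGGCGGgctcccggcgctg
Grem1: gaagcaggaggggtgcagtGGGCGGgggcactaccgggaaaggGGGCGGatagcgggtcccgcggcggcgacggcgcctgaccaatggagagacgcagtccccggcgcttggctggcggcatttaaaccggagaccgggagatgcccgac
Timp2: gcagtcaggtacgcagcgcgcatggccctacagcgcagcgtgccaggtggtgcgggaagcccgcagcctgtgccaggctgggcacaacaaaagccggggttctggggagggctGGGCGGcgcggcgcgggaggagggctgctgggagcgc

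In the 250 bases before the start site, a TATA box was found for 3 of 8 genes (Cyr61, Postn and Tnc), against 7.592% of 32851 promoters. A gene counts here if any of its promoters holds the motif, while the shares are per promoter. By promoter, 4 of 11 held a TATA box and 7 of 11 a GC box, but the first and second promoters of Tnc overlap. The same TATA box and the same GC box of Tnc are therefore counted in both. The TATA box lay at position -25 in Cyr61, where the GC box follows it directly, at -26 in Postn and at -126 from the first start site of Tnc. A GC box was found for 6 of 8 genes, against 32.74% of promoters, with 3 copies in Grem1. The TEAD core was found for 1 of 8, Cyr61 at -103, against 12.64%, although TEAD factors with the coactivator YAP are known regulators of Cyr61. An AP-1 site (TGANTCA, palindromic) and a CArG box were found for 0 of 8, against 6.749% and 1.467%. The median GC content was 56.4% over the 11 promoters of these 8 genes and 52.4% over all promoters, and among the genes it ran from 40.4% in the first promoter of Postn to 72.0% in Grem1. These matches describe letters in a window and are no evidence of binding.

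Reads on genes numbered from 17187595 to 37951742 per library, and the deposited values are CPM, read counts scaled by the TMM method among the libraries of a table. The libraries do not share 1 total: the CPM summed to 798811 in WT and 638591 at Tc 2D. Unless said otherwise, the 3 values of a gene in the Pontin libraries stand in the order WT, OHT 3D, OHT 4D. The labels were checked first. Ruvbl1 had 198, 33.3 and 50.9 CPM, and at Tc 2D it had 85.0 CPM, below the 166 and 186 of the control shRNA libraries. Pou5f1 had 301 CPM in WT and 21.1 at Tc 2D, against 582 and 642 in the control shRNA libraries. The ES cell genes Sox2, Nanog and Klf4 were each above 200 CPM in every library but Tc 2D. Zfp42, another ES cell gene, was not lower at Tc 2D, with 61.4 CPM in WT and 76.2 at Tc 2D. In the shRNA libraries it had from 914 to 1330 CPM. The Pontin and Tc libraries were normalized in one table and the shRNA libraries in another, and levels of some very abundant genes differ widely between the tables: Eef1a1 had 2918 CPM in WT and 12801 in control replicate 1. Table and cell line cannot be told apart there.

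Every one of the matrix and membrane genes was higher in both Pontin-depleted libraries than in the other 6. The share of all genes with this order was not counted, and the genes were chosen for the rise after OHT. A gene was called when its log2-fold-change, taken after adding 1 to the CPM, passed 0.58. All 10 passed it upward after 3 days, as did 6.01% of 13449 genes, and all 10 after 4 days, as did 6.48%. Since the genes were chosen for this rise, nothing is read from these counts, and with 1 library per time point the sequencing gives no replicate check of the rises. Their levels summed to 53.9, 448 and 461 CPM, and the median log2-fold-change was 3.17 and then 3.28.

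**Figure D1:**
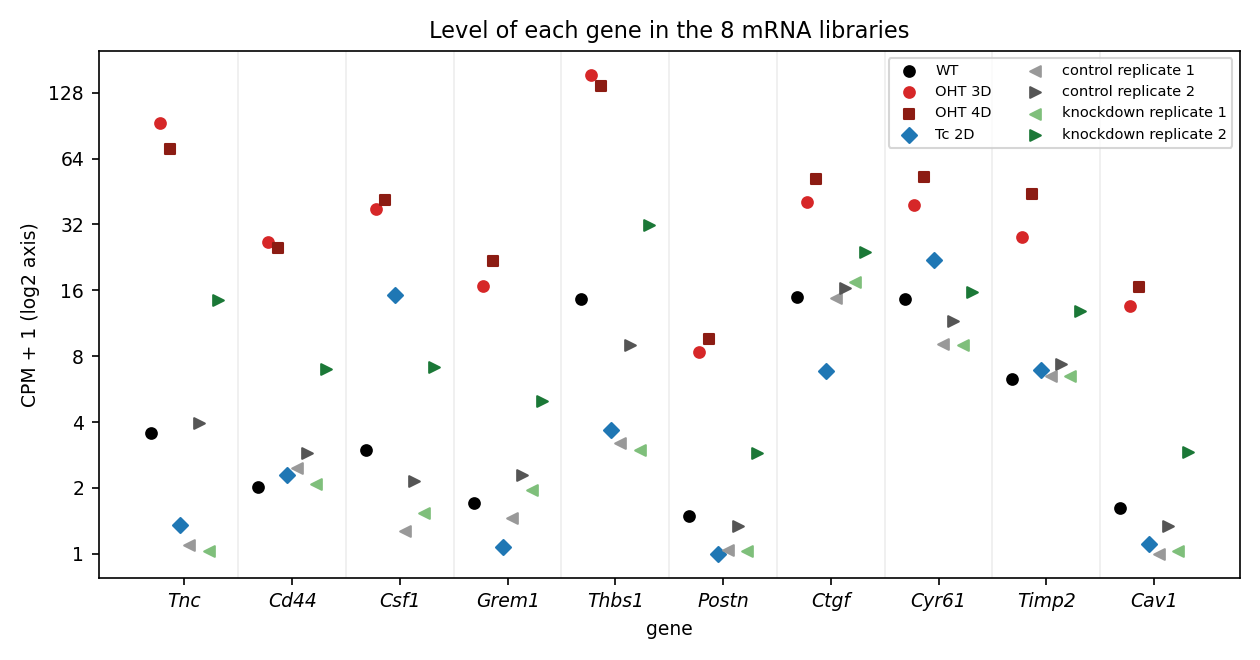
Level of each gene, as CPM plus 1 on a log2 axis, in the 8 mRNA libraries, with 1 point per library. The OHT 3D and OHT 4D points are the highest for all 10 genes, and among the shRNA libraries knockdown replicate 2 is the highest for each gene.

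Tnc encodes tenascin-C, a large matrix glycoprotein that loosens cell adhesion (ENSMUSG00000028364, NCBIM37 chromosome 4, 63620819 to 63681760). It had 2.55, 92.0 and 69.4 CPM, from 57, 2034 and 1585 reads. This is 36.1 times the WT level at OHT 3D (95% counting interval 27.8 to 47.9) and 27.2 times at OHT 4D. Its log2-fold-changes of 4.71 and 4.31 were the largest of all 13449 genes at both times. Both ranks depend on adding 1 to the CPM. Rbms3, for example, had 0 CPM in WT and 0.860 at OHT 3D, so that its plain ratio has no upper bound. Within the set, Grem1 rose more than Tnc at OHT 4D by the plain ratio to WT, 29.0 times against 27.2.

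Thbs1 encodes thrombospondin-1, which binds Cd47 and Cd36 and can activate latent TGF-beta (ENSMUSG00000040152, chromosome 2, 117937612 to 117952869). It had the highest CPM of the set after OHT, with 13.7, 154 and 136, and ratios to WT of 11.2 and 9.96. Tnc, Thbs1 and Cd44 were the 3 genes whose level was lower at OHT 4D than at OHT 3D.

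Postn encodes periostin, a matrix protein of periosteum and other collagen-rich tissue (ENSMUSG00000027750, chromosome 3, 54165031 to 54194961). It was the least abundant of the set, with 0.492, 7.33 and 8.63 CPM, the first from 11 reads. At OHT 3D its ratio to WT was 14.9, and the counting interval ran from 8.11 to 30.5, wider than that of Thbs1, 9.99 to 12.7. These intervals hold counting error only, so that how well either rise would repeat is not known.

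Ctgf (Ccn2; ENSMUSG00000019997, chromosome 10, 24315248 to 24318489) and Cyr61 (Ccn1; ENSMUSG00000028195, chromosome 3, 145309935 to 145312949) encode CCN proteins, which bind integrins, and both are widely used as readouts of YAP and TEAD. Ctgf had 13.9, 39.6 and 50.8 CPM. Cyr61 had 13.6, 38.2 and 51.7 CPM. These genes of one family thus had like levels in all 3 libraries, and their rises, 2.85 and 2.81 times at OHT 3D, were the smallest of the set.

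Grem1 encodes gremlin, a secreted antagonist of bone morphogenetic proteins (BMPs) (ENSMUSG00000074934, chromosome 2, 113586321 to 113598803). Its levels were 0.715, 15.7 and 20.8 CPM, the first from 16 reads. Csf1 encodes the growth factor that macrophages need to live and multiply (ENSMUSG00000014599, chromosome 3, 107543966 to 107563387). It had 1.97, 36.5 and 40.6 CPM, a rise of 18.6 and 20.6 times. Timp2, an inhibitor of matrix metalloproteinases that also takes part in the activation of Mmp2 by Mmp14, had 5.32, 27.0 and 43.2 CPM (ENSMUSG00000017466, chromosome 11, 118162383 to 118217054). Timp2 was the only gene of the set to pass the threshold between OHT 3D and OHT 4D, with a log2 difference of 0.66. In that direction 5.47% of all genes passed it. Of the 10, 7 were above 0, and the median over all genes was 0.035, so that nothing is read from this count.

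The genes of the membrane proteins were higher in both OHT libraries too. Cd44, the main receptor for hyaluronan at the cell surface, had 1.03, 25.7 and 24.0 CPM (ENSMUSG00000005087, chromosome 2, 102651298 to 102741822). Cav1 encodes caveolin-1, which shapes the small membrane pits called caveolae (ENSMUSG00000007655, chromosome 6, 17256335 to 17291452). It had 0.626, 12.5 and 15.5 CPM, the first from 14 reads. Of all genes, Cd44 ranked 3 and Cav1 ranked 14 by log2-fold-change at OHT 3D.

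Per kilobase of exon, which allows genes to be compared, the order of the levels differed between libraries. Cyr61 and Ctgf led in WT with 6.70 and 5.58 CPM per kb. At OHT 3D Thbs1 came first with 25.3 CPM per kb, ahead of Cyr61 with 18.9 and Ctgf with 15.9. Cyr61 and Thbs1 were again ahead at OHT 4D, with 25.5 and 22.4 CPM per kb. Postn was the lowest of the set in 7 of 8 libraries, at 0.935 CPM per kb at OHT 3D. With 1 library per time point, whether neighbours in this order differ was not tested.

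At Tc 2D the 10 genes went in both directions, as did genes at large. Of them, 2 were upregulated against WT, when 23.9% of genes were, and 4 downregulated, when 25.8% were. Their median log2-fold-change was -0.57, against -0.06 over all genes. Csf1 had 14.2 CPM at Tc 2D, from 402 reads, which is 7.20 times WT, and Cyr61 had 20.9 CPM. Thbs1, Tnc, Ctgf and Grem1 were below the threshold, with levels of 2.68, 0.352, 5.85 and 0.0705 CPM and log2-fold-changes of -2.00, -1.39, -1.12 and -0.68. The Grem1 level rests on 2 reads, and its ratio to WT of 0.0985 has a counting interval of 0.011 to 0.419. Postn had 0 reads at Tc 2D, which allows up to 0.106 CPM, and the counting interval of its ratio to WT reached up to 0.314. Cd44 (1.30 CPM), Timp2 (5.89 CPM) and Cav1 (0.106 CPM, from 3 reads) did not pass the threshold.

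The control shRNA libraries of ZHBTc4 cells allow a comparison of Tc 2D within 1 cell line, which shares no library with the one that chose the genes, but in a separately normalized table and with cells that had been infected. Csf1 and Cyr61 were again the 2 genes upregulated, with log2-fold-changes of 3.19 and 1.10, when 17.8% of 13984 genes were upregulated. Ctgf, Grem1 and Tnc were the 3 downregulated, with -1.18, -0.77 and -0.62, when 30.1% of genes were. The median was -0.23 for the set and -0.17 over all genes. Csf1 had 0.277 and 1.16 CPM in the control libraries, so that the Tc 2D level of 14.2 lay above both. The direction of Tnc rested on 1 control library: it had 0.0923 CPM in control replicate 1 and 2.97 in control replicate 2, and its log2-fold-change was 0.31 without control replicate 2 and -1.55 without control replicate 1. Thbs1, not called against both controls, likewise went from 0.19 without control replicate 2 to -1.29 without control replicate 1. Grem1 did not pass the threshold without control replicate 2, at -0.45, so that Ctgf was then the 1 gene downregulated, against 4 without control replicate 1.

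**Figure D2:**
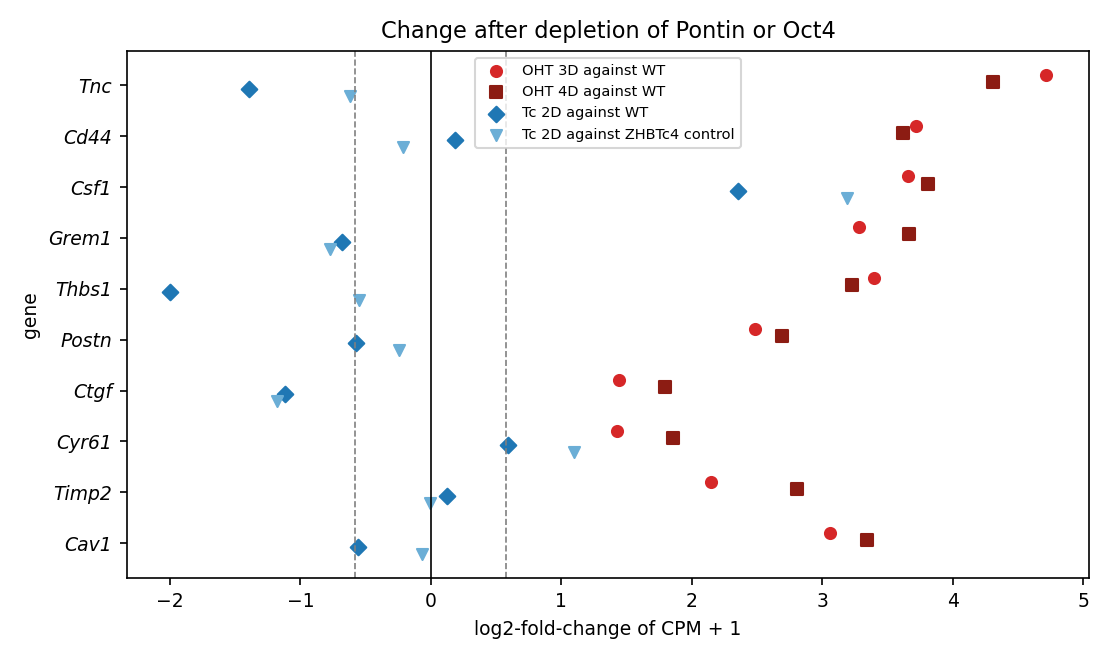
Log2-fold-change of CPM plus 1 for each gene at OHT 3D and OHT 4D against WT and at Tc 2D against WT or against the mean of the ZHBTc4 control libraries, with dashed lines at the threshold of 0.58 in each direction. All OHT points lie to the right of the threshold, between 1.43 and 4.71, whereas at Tc 2D only Csf1 and Cyr61 do so.

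Knockdown of linc1253 is the only comparison with replicates, 2 libraries a group, and its values are not those that the genes were chosen by, although they were known when the genes were listed. Nothing says that the replicates came from separate cultures, so that p-values may measure technical spread alone. No gene of the set was called in the fit without a replicate block: in limma on log2 of CPM plus 1 the adjusted p, by Benjamini-Hochberg over 13407 genes, ran from 0.691 to 0.896. Nor was any other gene called (0.00%), the lowest adjusted p being 0.265, and at an unadjusted p under 0.05 there were 496 genes up, which is 3.70%, and 503 down, with 0 of the 10 among them. By edgeR (quasi-likelihood) 0 genes were called too, with 497 up and 513 down unadjusted, and DESeq2 called 22 up (0.209%) and 28 down, with 0 of the 10 among them and no adjusted p given for 6 of the 10.

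For 9 of the 10 genes the control and knockdown libraries overlapped. Tnc had 0.0923 and 2.97 CPM in the control libraries and 0.0258 and 13.5 in the knockdown libraries. Thbs1 had 2.21 and 8.0 CPM with the control shRNA and 1.98 and 30.7 with the linc1253 shRNA. Csf1 had 0.277 and 1.16 CPM, and then 0.541 and 6.14. For all 3, knockdown replicate 2 was the highest and control replicate 2 the second, while both libraries numbered 1 were low.

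Knockdown replicate 2 was also the highest and control replicate 2 the second for Cd44, Grem1, Postn and Cav1. Cd44 had 1.48 and 1.89 CPM in the control libraries and 1.08 and 6.01 in the knockdown libraries. Grem1 had 0.461 and 1.29 CPM, and then 0.954 and 3.99. Postn, with 0.0461 and 0.344 CPM and then 0.0258 and 1.89, rested on 1, 8, 1 and 43 reads. Cav1 likewise had 0 reads in control replicate 1, which allows up to 0.138 CPM, 0.344 CPM in control replicate 2, and 0.0258 and 1.93 CPM in the knockdown libraries. Of Postn and Cav1, then, 1 library holds most of the reads.

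Timp2, Cyr61 and Ctgf differed least between the libraries numbered 2. Timp2 had 5.49 and 6.41 CPM in the control libraries and 5.49 and 11.9 in the knockdown libraries. Cyr61 had 8.07 and 10.5 CPM, and then 8.02 and 14.7. Ctgf, with 13.7 and 15.4 CPM and then 16.4 and 23.1, was the only gene of the 10 whose groups did not overlap, which 18.8% of genes showed in that direction, and its log2-fold-change of 0.40 (SE 0.18) had an adjusted p of 0.691 in limma.

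Set against each other, knockdown replicate 1 and control replicate 1 differed past 0.58 in 0 of the 10 genes (1.29% of genes upward), with a median log2 difference of -0.00 for the set. Knockdown replicate 2 was above control replicate 2 by more than 0.58 in 8 of 10 (1.36% of genes), with a median of 1.12. By the same threshold, control replicate 2 was above control replicate 1 in 4 of 10 (1.93% of genes), namely Tnc, Thbs1, Csf1 and Grem1. Knockdown replicate 2 was above knockdown replicate 1 in 9 of 10 (1.93%). In the last 3 of these comparisons all 10 differences were above 0, when the medians over all genes were -0.0038, -0.0090 and -0.0101. The share of all genes above 0 was not counted. Knockdown replicate 2 was the highest of the 4 libraries for 10 of 10 genes, against 23.0% of all, and control replicate 2 was second as well for 9 of 10, all but Ctgf, against 11.6%. Without knockdown replicate 2, the log2-fold-change of 8 of the 10 fell below 0, to a median of -0.18 from 0.56. The median over all genes was then -0.0014. Without knockdown replicate 1, 4 of the 10 were called upregulated in limma (Cd44, Csf1, Tnc and Thbs1), where 0.104% of genes were, and the lone knockdown library was then assumed to vary like the controls.

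**Figure D3:**
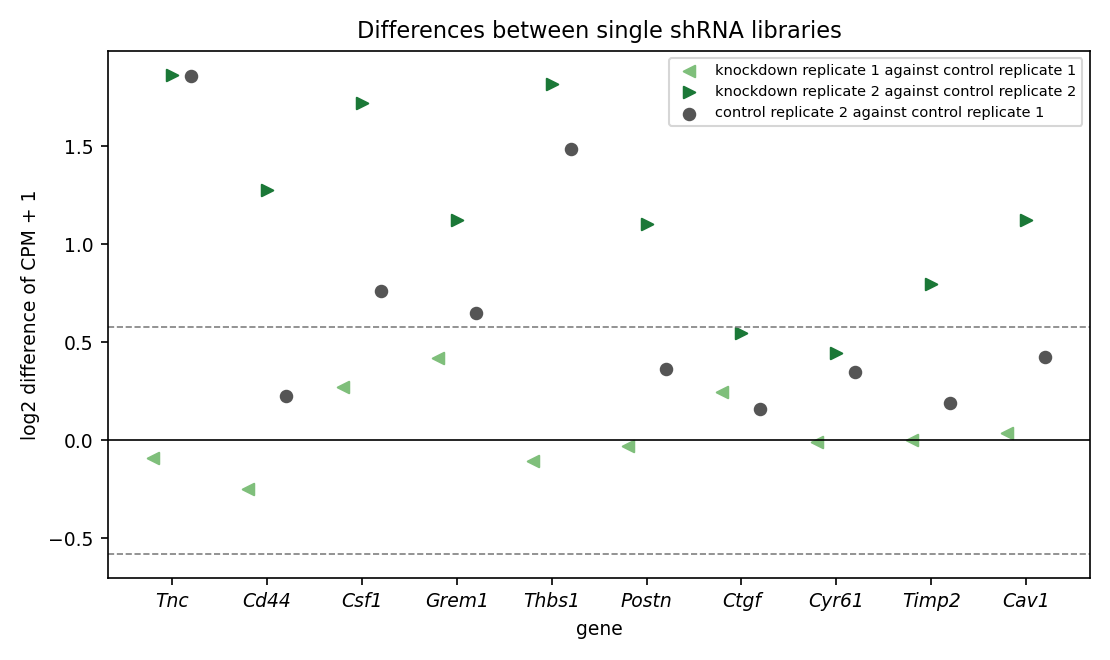
Log2 difference of CPM plus 1 between single shRNA libraries for each gene, with dashed lines at 0.58 in each direction. The points for replicate 1 lie between the lines for all 10 genes, those for replicate 2 lie above the upper line for 8, and the difference between the control libraries lies above it for 4.

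Most fibroblast markers rose with the set at OHT 3D and OHT 4D. Of 20 listed, 16 were expressed, that is, above 1 CPM in at least 1 of the WT, OHT 3D, OHT 4D and Tc 2D libraries. Of the 16, 14 were upregulated at each OHT time, and the median log2-fold-changes of the 16 were 1.59 and 1.63. Some of them, such as S100a4, passed the filter of 1 CPM only through the OHT libraries, which favours an upward call. The fibrillar collagen gene Col1a1 had 4.20, 46.5 and 64.6 CPM, Col1a2 had 2.82, 35.3 and 45.6, and S100a4 had 0.268, 7.51 and 14.5. Dcn, Lum, Fap and Dpt, which also define fibroblasts, stayed under 1 CPM in every library. The sum of the list was 856 CPM in WT and 917 and 900 after OHT, most of it from Fn1, and without Fn1 it was 61.9, 275 and 344 CPM. At Tc 2D the list without Fn1 summed to 175 CPM, whereas the set summed to 51.3 CPM, against 53.9 in WT. Of the 16 markers, 5 were upregulated and 4 downregulated at Tc 2D against WT, when 23.9% and 25.8% of genes were.

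In knockdown replicate 2 against control replicate 2, 6 of 14 fibroblast markers passed the threshold of 0.58 upward, when 1.36% of genes did. In knockdown replicate 1 against control replicate 1, 0 of 14 did, when 1.29% of genes did, although smaller differences upward were present there. Col1a2 had 0.738, 2.24, 0.876 and 8.77 CPM in control replicates 1 and 2 and knockdown replicates 1 and 2, so that knockdown replicate 2 was again the highest and control replicate 2 the second. The sum without Fn1 ran from 234 to 294 CPM in the control libraries and from 266 to 286 in the knockdown libraries. Without Vim as well, which made up most of it, the sum was 77.5 and 71.4 CPM in the control libraries and 80.3 and 93.8 in the knockdown libraries, highest in knockdown replicate 2. The set summed to 31.8 and 48.4 CPM in the control libraries and to 34.6 and 114 in the knockdown libraries. The part of fibroblasts in the levels of the matrix and membrane genes was not tested. Of 6 macrophage markers, Ptprc, Cd14 and Tyrobp were under 1 CPM in every library, and Cd68 was between 7.96 and 16.2 CPM. Itgam had 4.30 to 4.75 CPM in the shRNA libraries and up to 1.40 in the others, and Emr1 passed 1 CPM only in knockdown replicate 2, at 1.18. Csf1r and Il34, the receptor and other ligand of the Csf1 system, summed to 0.447, 0.724 and 1.97 CPM in the Pontin libraries, 1.13 at Tc 2D, and between 2.15 and 3.14 in the shRNA libraries. Csf1r alone had 0, 0.181 and 1.18 CPM in the Pontin libraries and passed the threshold upward at OHT 4D, whereas Il34 did not.

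Among the 5 genes whose log2 levels over the 8 libraries were most like the mean profile of the set were Bgn (Pearson's r = 0.995), Col1a2 (0.985), Lox (0.976) and Fbln2 (0.974). They encode a matrix proteoglycan, a collagen chain, a collagen cross-linking enzyme and a fibulin. Of 10421 genes compared, 34 (0.326%) were above 0.9. These values describe 8 libraries, of which 2 are of the same Pontin-depleted cells, and are no test. Within the set, Cav1 and Postn (both r = 0.997) were closest to the mean of the 10 and Csf1 (0.859) farthest.

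Other genes of the same pathways were taken from lists of known members, and over all genes 5.88% were downregulated at OHT 3D and 8.89% at OHT 4D. In these lists too, some genes passed the filter of 1 CPM only through the OHT libraries, which favours an upward call. Among them were Sdpr, Cav2 and Prkcdbp of the caveolae list, all counted as upregulated below. Of 12 other matricellular genes that were expressed, 2 were upregulated at OHT 3D (Thbs2 and Wisp1) and 5 at OHT 4D, and 0 were downregulated. The 5 were Thbs2, Wisp1, Smoc2, Fbln5 and Sparc, and all but Sparc passed the filter only through the OHT libraries, so that little is read from these counts. Sparc, the most abundant of those that rose, had 208, 273 and 401 CPM, and Spp1, with 374, 309 and 369 CPM, did not pass the threshold. Of 11 receptors of matricellular proteins, 1 was upregulated at each time, the epidermal growth factor receptor gene Egfr, which is named after its values were seen and had 2.28, 6.70 and 5.43 CPM. Itgb1, the beta chain shared by many integrins, had 180, 207 and 225 CPM and did not pass the threshold. The median log2-fold-change of the receptors was 0.19 at OHT 3D and 0.16 at OHT 4D.

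Of 19 expressed YAP and TEAD targets, 11 were upregulated at OHT 3D and 12 at OHT 4D, with 1 downregulated at OHT 4D. Axl, a receptor tyrosine kinase, had 4.60, 24.0 and 20.6 CPM, and Igfbp3, which binds insulin-like growth factors, had 12.2, 18.9 and 36.0. Of 16 genes of the TGF-beta pathway, 7 were upregulated at each time and 1, Skil, was downregulated at OHT 4D. Ltbp2, which belongs to the family of latent TGF-beta binding proteins, had 1.16, 8.10 and 6.53 CPM, and Skil, a repressor of Smad signalling, had 144, 108 and 61.0.

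Among BMP ligands and antagonists, 4 of 11 were upregulated and 1, Bmp7, downregulated at OHT 3D, and 5 were upregulated at OHT 4D. Bmp4 rose from 9.12 CPM to 29.6 and 25.2, while Bmp7 had 13.5, 6.11 and 9.24. Of 7 genes of caveolae, 5 were upregulated at each time, among them Sdpr, with 0.268, 8.05 and 7.18 CPM, and Ehd2, with 1.30, 7.28 and 9.99. Of 13 other TIMPs and metalloproteinases, 2 were upregulated at OHT 3D and 3 at OHT 4D, when 1, Adam19, was downregulated. Timp3 had 3.62, 10.2 and 8.50 CPM, and Mmp14, which acts with Timp2, had 34.9, 43.6 and 59.3. Of 9 genes of hyaluronan turnover and the Cd44 partners, 1, the hyaluronidase gene Hyal1, was upregulated at OHT 3D. At OHT 4D, 2 were upregulated, the hyaluronidase gene Hyal2 and the synthase gene Has2, and 2 were downregulated, Vcan and the synthase gene Has3. Vcan, a proteoglycan that binds hyaluronan, had 34.5, 33.8 and 16.9 CPM, and Ezr, which links Cd44 to the cytoskeleton, had 335, 262 and 236 CPM and did not pass the threshold.

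**Figure D4:**
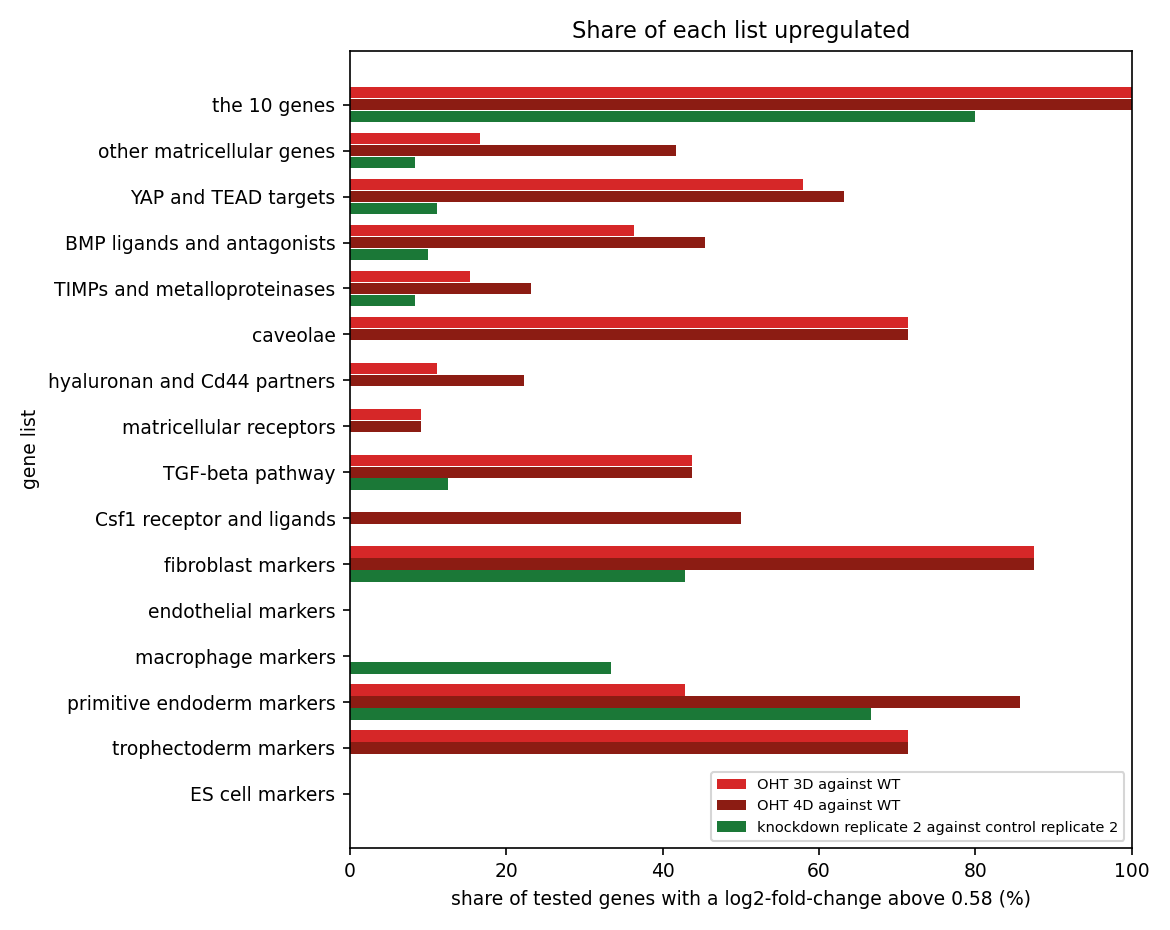
Share of the tested genes of each list, in percent, with a log2-fold-change above 0.58 at OHT 3D or OHT 4D against WT and in knockdown replicate 2 against control replicate 2. Bars reach 100% for the 10 genes, which were chosen for the OHT rise, 87.5% for fibroblast markers and 0% for ES cell markers at both OHT times.

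Pontin occupancy was compared at the promoters, windows that begin 2.5 kb before the start site and end 500 b after it, as the log2 ratio of Pontin over GFP reads scaled by library size. Of the 10 promoters, 4 lay above the median of 0.34 over 21186 promoters, which 49.7% of all did, and 3 above 1, which 14.5% of all did. Cav1 had the highest ratio, 1.87, from 78 Pontin and 9 GFP reads. Thbs1 followed with 1.20 and Tnc with 1.13, from 76 and 14 and from 52 and 10 reads. Over all promoters the medians were 72 Pontin and 24 GFP reads. The high ratios of these 3 genes thus went with few GFP reads, while their Pontin reads were near the median or below it. Ctgf had 0.62, and the other 6 lay between -0.28 (Csf1) and 0.28 (Cyr61). Counting 1 read per position and strand, which left out 11.4% of Pontin and 19.3% of GFP reads, put 5 of 10 above the median, with Timp2 at 0.64 and Ctgf at 0.37.

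With read pairs in place of reads, the 95% counting interval of Cav1 ran from 0.49 to 3.52, the only one of the 10 that lay wholly above the median of all promoters. That of Thbs1, 0.04 to 2.45, and that of Tnc, -0.16 to 2.68, included the median, and none lay wholly below it. Within 1 kb either side of the start site the ratio was 0.72 for Thbs1, 0.39 for Tnc and 1.05 for Ctgf, 3 of 9 were above the median, which was then 0.53, and Cav1 had no GFP read to form a ratio with. With 1 library per antibody the occupancy has no replicate check. The ratio also moved with expression: its median was 0.06 for promoters of genes under 0.1 CPM in the control libraries and 0.50 for those above 100 CPM. Of the 10, 4 lay in the class from 0.1 to 1 CPM, where the median was 0.25, and 5 in that from 1 to 10 CPM, where it was 0.36.

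**Figure D5:**
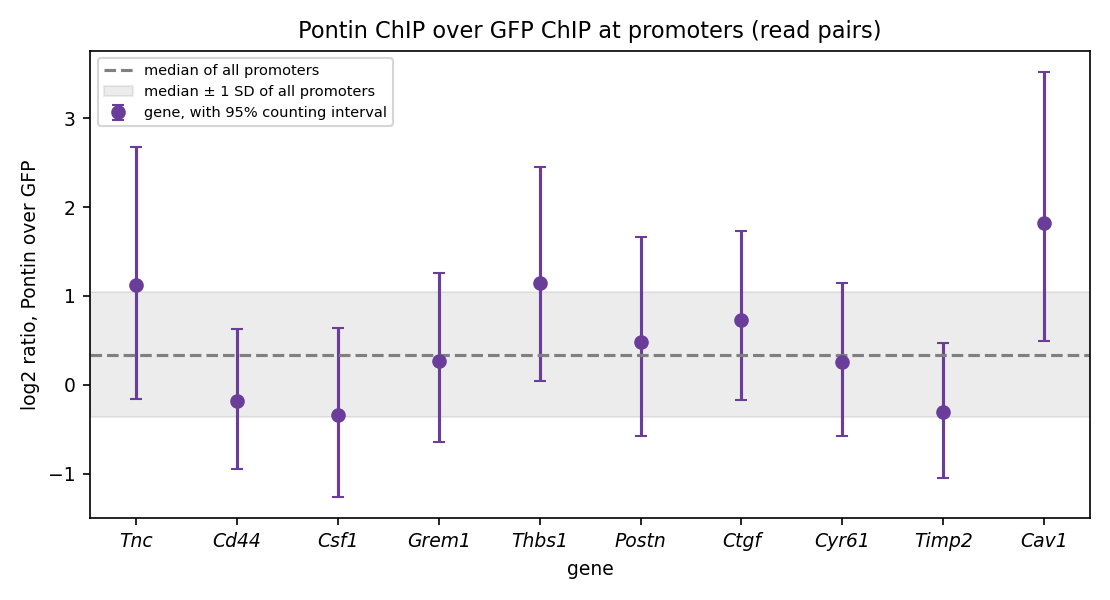
Log2 ratio of Pontin over GFP read pairs at the promoter of each gene, with 95% counting intervals, beside the median (dashed line) and 1 SD either side (band) of the read ratios of all promoters. Cav1 is highest at 1.83, Thbs1 and Tnc follow at 1.15 and 1.12, and every interval but that of Cav1 spans the median.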

How the data were processed

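The authors deposited mRNA values as CPM: reads were trimmed, mapped by TopHat to NCBIM37, assigned to genes by HTSeq and scaled by TMM in edgeR, in 2 tables of 4 libraries each. CPM values were whole numbers of reads within 0.01 read for 100% of values, so that reads could be recovered. The deposited ChIP-seq files, aligned with Bowtie2, list reads with their mapping quality score, 40729076 for Pontin and 17185883 for GFP. TruSeq libraries of this kind do not mark strand, so that reads of Tnc, Cd44, Ctgf and Cav1 cannot be told from those of noncoding genes annotated on the other strand, nor those of Timp2 from a protein-coding gene that overlaps it.

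The members and gene lists were chosen with earlier results of these data known. All members are named, and of each list at most 4 genes with the largest changes at a mean CPM of at least 5, plus markers near 0. Named outside this rule, after their values were seen, were Egfr, Itgam, Emr1, Csf1r, Il34, Hyal1, Has2, Has3, Vim and Fn1. So were Thbs2, Wisp1, Smoc2, Fbln5, Cav2, Prkcdbp, Zfp42 and Rbms3. Some genes that these rules select are not reported here. Genes above 1 CPM in at least 1 library compared were tested, with limma 3.58.1 (trend), edgeR 4.0.16 and DESeq2 1.42.0 in R 4.3.3, after a test on simulated data. Intervals (95%, exact) and the limit for 0 reads (3 reads) cover counting error only. Sequence analysis used Python 3.11.15.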

Additional observations from a re-analysis of the deposited data

How the results depend on the processing

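The counts of the set upregulated at OHT 3D and OHT 4D stayed within 1.5 times of those given under every alternative run (pseudocount of 0.5 or 3, no filter or a filter at 5 CPM, a threshold of 1 on the log2 scale, rescaling by median ratios). The size depends on the pseudocount: the median log2-fold-change at OHT 3D was 3.49 with 0.5 and 2.22 with 3, at OHT 4D 3.55 and 2.58, and after knockdown 0.76 and 0.37. At Tc 2D against WT, the count of 2 upregulated became 1 with a pseudocount of 3 and 1 with an absolute log2-fold-change above 1, in both cases without Cyr61, and the 4 downregulated became 6 with a pseudocount of 0.5 and 3 in those settings. Against the ZHBTc4 control, the count of 3 downregulated became 4 with a pseudocount of 0.5 and 1, Ctgf, with a pseudocount of 3 (Tnc -0.36, Grem1 -0.33) and 1 with an absolute log2-fold-change above 1, and Tnc was at -0.56 after rescaling by median ratios. There Tnc ranged from -1.55 to 0.31 when 1 control library was left out, and the cause was not tested. One TMM scale over all 8 libraries raised the median of the first table by 0.30 to 0.33 and of the second by 0.11 to 0.13 on the log2 scale.

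For linc1253 knockdown, the count of genes called was 0 in limma, 50 with DESeq2, and from 0 to 17 with 1 library left out; of the set, from 0 to 4 were called with 1 library left out. Replicate numbers are shared by the groups but no source pairs them, and with 2 pairs the check (r = 0.67 between same-numbered deviations) is only a hint. A limma fit with the replicate number as a block called 1960 genes (933 up, which is 6.96%, and 1027 down) and 5 of the set, Csf1, Ctgf, Tnc, Thbs1 and Grem1. Leaving out 1 library gave log2-fold-changes from -1.02 to 2.80 for Tnc, -0.36 to 1.39 for Cd44, -0.11 to 2.10 for Csf1, -0.85 to 2.56 for Thbs1, -0.21 to 1.28 for Postn, -0.18 to 0.62 for Cyr61, -0.10 to 0.89 for Timp2 and -0.18 to 1.34 for Cav1. Each was lowest without knockdown replicate 2, and Tnc was also below 0 without control replicate 1. Grem1 and Ctgf stayed above 0. On recovered reads the median log2-fold-change of the set was 1.53 in edgeR, against 0.56 in limma, and the cause was not tested. Restricting the ChIP-seq to promoters with at least 50 GFP reads left 0 of the 10, so that this alternative gave no value. At under 1 CPM, as for Cav1 and Postn in 3 of 4 shRNA libraries, differences of a few reads set the values.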

Other observations

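Of 7 expressed primitive endoderm markers, 3 were upregulated at OHT 3D and 6 at OHT 4D. At Tc 2D, 4 of 7 were upregulated against WT, and 4 of 7 against the ZHBTc4 control. Of 6 expressed in the shRNA libraries, 4 were higher in knockdown replicate 2 than in control replicate 2 and 0 in knockdown replicate 1 than in control replicate 1. Col4a1, a basement membrane collagen, had 33.3, 95.6 and 129 CPM in the WT, OHT 3D and OHT 4D libraries and 206 at Tc 2D. In the shRNA libraries it had 59.2 and 51.9 CPM with the control and 60.0 and 90.8 with the linc1253 shRNA. Dab2, an endocytic adaptor of extraembryonic endoderm, had 3.08, 7.47 and 13.7 CPM in the Pontin libraries, 14 at Tc 2D and 6.14, 8.52, 6.16 and 12.7 in the shRNA libraries. Foxa2 stayed under 1 CPM in every library.

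Of 7 expressed trophectoderm markers, 5 were upregulated at each OHT time, and 2 were downregulated at OHT 3D (Eomes and Tfap2c) and 1 at OHT 4D (Tfap2c). Krt8 had 19.8, 65.1 and 155 CPM in the WT, OHT 3D and OHT 4D libraries, and Tfap2c, the most abundant of them in WT, had 192, 114 and 127. In knockdown replicate 2 against control replicate 2, 0 of 6 passed the threshold upward and 1, Tfap2c, downward, with 30.7 against 49.7 CPM. In knockdown replicate 1 against control replicate 1, 0 of 6 passed it upward and 2 downward, and Tfap2c had 30.9 against 52.7 CPM. Krt8 and Krt18 were also high at Tc 2D, with 133 and 157 CPM. Of 10 ES cell markers, 0 were upregulated at OHT 3D or OHT 4D, and 1, Fgf4, was downregulated, at OHT 4D.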
